A study of Mus musculus with 3 samples.

Results

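The transcription factor genes Egr1, Egr2, Egr3 and Egr4 and the nuclear receptor genes Nr4a1, Nr4a2 and Nr4a3 were followed in RNA bound to tagged ribosomes of the adult mouse dentate gyrus. These 7 genes were chosen by name as activity-induced immediate early genes, and all 7 had a row among the 32531 genes counted. The C57BL/6J mice were of the Penk-TRAP NIDA186 line, whose transgene puts EGFP-tagged Rpl10a, a ribosomal protein, under the regulatory DNA of the proenkephalin gene Penk. Tagged polysomes were pulled down with antibodies against EGFP and the bound RNA was sequenced (translating ribosome affinity purification, TRAP). The 3 libraries were replicates 1 to 3 of 1 untreated group of immunopurified samples. The labels give no second condition, and neither the age beyond adult nor the number of animals behind a library. Libraries of unbound or whole-tissue RNA were not analysed here, and levels could be compared between genes and between libraries, but not with the surrounding tissue.

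Egr proteins are zinc finger transcription factors that bind GC-rich DNA. Their genes are switched on within minutes of synaptic activity through calcium and MAP kinase signals that act on serum response factor (Srf) with its Elk partners and on CREB. The Nr4a genes encode orphan nuclear receptors, which work without a classical ligand, so that their activity follows mainly from how much protein is made, and their promoters respond to CREB. In the hippocampus both families are known for their rise after learning, long-term potentiation and seizures, and Egr1, also called Zif268, is a classical marker of potentiated dentate gyrus synapses.

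The promoters of the Nr4a genes and of Egr4 are shown because Nr4a1 and Nr4a3 had the same order of libraries while Nr4a2 and Egr4 had others. They are the reference sequence of RefSeq (build GRCm38.p6) before the annotated transcription start, 5′ to 3′ on the strand of the gene. Capitals mark the CRE core TGACG or its reverse complement CGTCA, part of the CREB binding site, and the TATA motif TATAAA or its reverse complement TTTATA. The Nr4a1 stretch is chr15:101266596-101266845 (plus strand), the Nr4a2 stretch chr2:57124004-57124253 (minus strand), the Nr4a3 stretch chr4:48045055-48045152 (plus strand, ended at the first base that GENCODE vM21 annotates as exon) and the Egr4 stretch chr6:85513590-85513839 (minus strand).
Nr4a1: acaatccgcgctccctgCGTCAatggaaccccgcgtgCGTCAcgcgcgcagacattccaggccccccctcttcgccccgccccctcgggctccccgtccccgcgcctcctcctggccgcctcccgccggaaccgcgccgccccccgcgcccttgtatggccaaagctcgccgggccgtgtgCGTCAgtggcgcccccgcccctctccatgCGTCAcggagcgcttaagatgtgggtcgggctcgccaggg
Nr4a2: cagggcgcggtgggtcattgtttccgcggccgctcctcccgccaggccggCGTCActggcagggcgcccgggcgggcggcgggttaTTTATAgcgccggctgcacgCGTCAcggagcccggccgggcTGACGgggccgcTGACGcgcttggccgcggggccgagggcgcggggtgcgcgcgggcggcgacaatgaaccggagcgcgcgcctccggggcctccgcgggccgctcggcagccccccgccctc
Nr4a3: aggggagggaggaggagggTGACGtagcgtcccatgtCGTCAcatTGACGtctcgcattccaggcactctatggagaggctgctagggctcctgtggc
Egr4: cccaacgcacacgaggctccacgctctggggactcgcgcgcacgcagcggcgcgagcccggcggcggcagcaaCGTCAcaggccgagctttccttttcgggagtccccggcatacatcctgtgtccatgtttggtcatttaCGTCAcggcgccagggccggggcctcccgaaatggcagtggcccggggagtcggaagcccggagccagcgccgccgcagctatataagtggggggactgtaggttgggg

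RefSeq promoters were matched for 5 of the 7 genes; Egr1 and Egr3 had no entry. In the 250 bases before the start, Nr4a1, Nr4a2 and Nr4a3 each held 4 CRE cores on either strand, 1 of those of Nr4a3 beyond the stretch shown. Of 32841 promoter windows of that length, 17.8% held at least 1 core, 3.90% at least 2 and 0.137% at least 4. Egr4 held 2 cores. The windows of Egr2 at 3 of its 5 annotated starts, the first at 67537869 on chromosome 10, held 2 as well. They also held a serum response element (CArG box), a motif found in 1.47% of all windows. These 3 windows overlap and share the same 2 cores and the same element, CCATATATGG. Another Egr2 window, chr10:67537316-67537565, held a separate CArG box, CCTTTTTTGG, and no CRE core. The full palindrome TGACGTCA, which contains 2 cores, was in none of the members' windows and in 1.55% of all windows. An Egr site, GCGNGGGCG on either strand, was matched once each in Nr4a1 and Nr4a2 and in 4.70% of all windows. The monomer site of the Nr4a receptors themselves, AAAGGTCA, was matched in none of the members' windows and in 1.34% of all. Only Nr4a2 among the members held TATAAA on either strand, which 12.4% of windows held. Its match was the reverse complement TTTATA, with its first base at -164 from the start. The Egr4 stretch holds tatataag close to the start, a similar run of letters that the search for TATAAA did not cover. A window without TATAAA may thus still hold a related motif. These matches describe the letters of the windows and were not tested as binding sites.

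The libraries held 5348761, 19195559 and 11059982 counts on genes in replicates 1 to 3, and 11913, 16578 and 14319 genes had a count. Levels are given as CPM, that is, counts after scaling each library by its total and its TMM factor. A gene at 0 counts could be present at up to 3 counts, which is 0.707, 0.131 and 0.257 CPM in replicates 1 to 3, a limit that covers counting error only. Replicate 1 was the shallowest and had counts for the fewest genes. The labelled tissue was checked on markers: 3 of 5 tested dentate granule cell markers (Prox1, Rfx3 and Stxbp6) and 6 of 6 pan-neuronal markers passed the test of level described below. Of the 9 granule cell markers listed, 4 were not tested, Calb1 and C1ql3 among them, with 2 and 0 counts in replicate 1. Whether replicates came from separate animals is not stated, so p-values measure the spread between these libraries, which may be technical.

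Of the Egr family, Egr3 and Egr1 carried nearly all the signal, and Egr2 and Egr4 were close to the limit of counting. Egr3 (chromosome 14, 70077203 to 70082614, plus strand), a factor of synaptic plasticity and muscle spindle development, had 1794, 6627 and 1326 counts, or 423, 289 and 113 CPM in replicates 1 to 3. Egr1 (chromosome 18, 34859823 to 34864984, plus strand) had 1418, 2945 and 974 counts, or 334, 129 and 83.3 CPM. Both genes were highest in replicate 1 and lowest in replicate 3. In such pooled RNA, fewer cells of a type and less RNA per cell cannot be told apart. The mean was 275 ± 155 CPM for Egr3 and 182 ± 134 CPM for Egr1 (SD, n = 3).

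Egr4 (chromosome 6, 85511121 to 85513589, minus strand) had 0, 24 and 54 counts, or 0, 1.05 and 4.62 CPM. Its order of libraries was the opposite of that of Egr1 and Egr3, with the highest level in replicate 3. The place of replicate 1 under replicate 2 rested on 0 and 24 counts in libraries of unlike depth. Egr2 (chromosome 10, 67535475 to 67542188, plus strand), best known as the myelination factor Krox20 of Schwann cells, had 3, 0 and 11 counts. The exact Poisson 95% interval of its 11 counts in replicate 3 ran from 5.49 to 19.7 counts, and that of its 0 counts in replicate 2 reached 3.69. The counts of Egr2 in replicates 1 and 2 were at or under the 3 counts used here as the limit for a value of 0. The interval of its 3 counts in replicate 1 ran from 0.619 to 8.77 counts.

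Within the Nr4a family Nr4a2 stood far above its relatives in all 3 libraries. Nr4a2 (chromosome 2, 57106830 to 57124003, minus strand), also called Nurr1 and known for its part in dopamine neuron development and in memory, had 601, 2675 and 3471 counts, or 142, 117 and 297 CPM. It was highest in replicate 3, the library in which Egr1 and Egr3 were lowest. Nr4a3 (chromosome 4, 48045153 to 48086447, plus strand), also called Nor1, had 172, 139 and 307 counts, or 40.6, 6.07 and 26.3 CPM. Nr4a1 (chromosome 15, 101254269 to 101274795, plus strand), also called Nur77, had 64, 104 and 126 counts, or 15.1, 4.54 and 10.8 CPM. Nr4a1 and Nr4a3 were both highest in replicate 1 and lowest in replicate 2. The means were 185 ± 97.6 CPM for Nr4a2, 24.3 ± 17.3 for Nr4a3 and 10.1 ± 5.30 for Nr4a1 (SD, n = 3). In GENCODE vM21 no other annotated gene overlapped the span of any of the 7 genes.

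**Figure D1:**
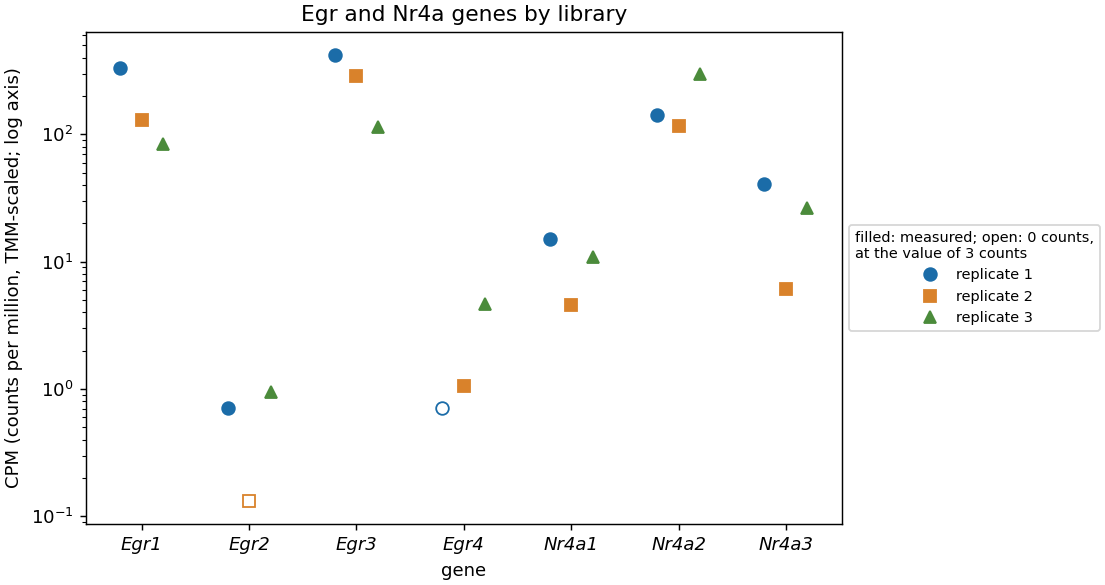
Level of each gene in CPM (log axis) in the 3 libraries, 1 point per library; open points mark 0 counts and are drawn at the value of 3 counts. Egr3, Egr1 and Nr4a2 lie between 83.3 and 423 CPM in every library, and Egr2 stays under 1 CPM.

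The level of each gene was set against the median tested gene of its library, to ask which members stood out from the bulk of the ribosome-bound RNA. Of the 7 members, 5 passed the filter on low counts, which asks in effect for expression in every library; Egr2 and Egr4 did not. On the log2 scale Egr3 exceeded the median gene by 2.98 (SE 0.46, adjusted p = 0.00128), Nr4a2 by 2.48 (SE 0.46, adjusted p = 0.0120) and Egr1 by 2.32 (SE 0.48, adjusted p = 0.0324), each in 3 of 3 libraries (limma, TREAT with a log2 threshold of 1). Thus 3 of the 5 tested members were called above, where 14.1% of all 8510 tested genes were. Below the median gene were 0 of 5 members, also at an unadjusted p under 0.05, against 5.22% of all tested genes. Nr4a3 lay at -0.70 (SE 0.82, adjusted p = 0.899) and Nr4a1 at -1.73 (SE 0.86, adjusted p = 0.460), and neither passed the test. The call of Egr1 ended without replicate 2 (2.39, adjusted p = 0.100) and that of Nr4a2 without replicate 3 (2.27, adjusted p = 0.151).

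The spread between libraries was wide for each member, around that of the typical tested gene. Each of the 5 tested members differed between libraries by more than counting error (Poisson chi-square, adjusted p under 0.05), as did 97.4% of all tested genes, so that these calls tell the members from few other genes. The log2 range from the lowest to the highest library, relative to the median gene, was 2.90 for Nr4a3, 2.16 for Egr1, 2.06 for Egr3, 1.89 for Nr4a1 and 1.37 for Nr4a2. Over all 8510 tested genes the median range was 1.84, with quartiles of 1.14 and 2.81. Nr4a3 had a wider range than 76.8% of tested genes and Nr4a2 than 33.8%. In CPM the highest library exceeded the lowest 6.68-fold for Nr4a3, 4.01-fold for Egr1, 3.73-fold for Egr3, 3.32-fold for Nr4a1 and 2.54-fold for Nr4a2.

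**Figure D2:**
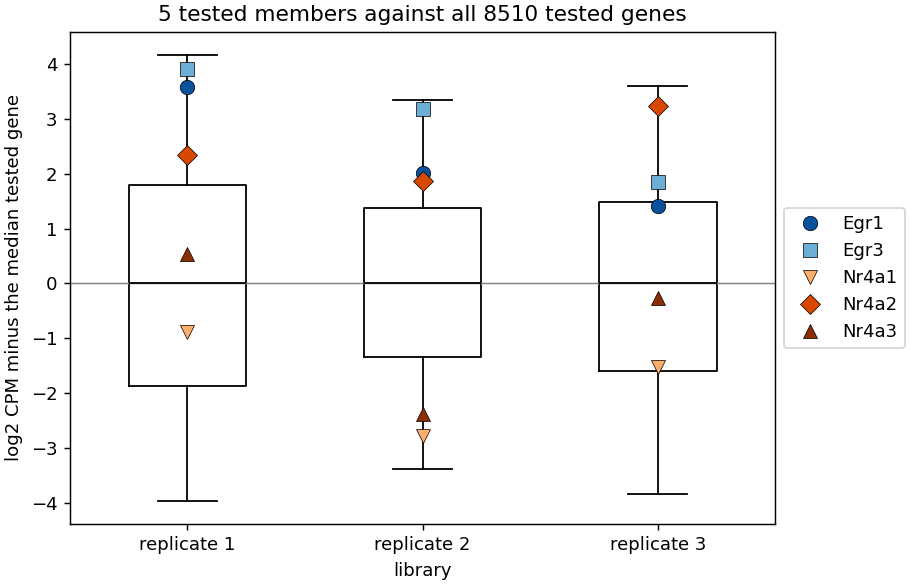
Log2 CPM relative to the median tested gene of the same library for the 5 tested members (coloured symbols) in each library; boxes give the median and quartiles of all 8510 tested genes, and whiskers their 5th and 95th percentiles. Nr4a2 lies below Egr1 and Egr3 in replicates 1 and 2 and above both in replicate 3.

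To compare the genes with each other, CPM was divided by the length of the merged exons. Per kb, Egr3 reached 96.0, 65.7 and 25.7, Nr4a2 34.9, 28.8 and 73.2, and Egr1 74.6, 28.7 and 18.6 CPM per kb in replicates 1 to 3. These 3 genes exceeded at least 79.7% of the 7908 tested genes with an exon length in every library. Nr4a3 followed at 6.77, 1.01 and 4.39 CPM per kb and Nr4a1 at 4.30, 1.29 and 3.07. Egr4 had 0, 0.488 and 2.15 CPM per kb, and Egr2 0.208, 0 and 0.277.

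The top 3 and the rest kept apart in each library, while some neighbours within these sets changed places. Of the 21 pairs of members, 17 had the same order in all 3 libraries, and in 15 of them the mean difference also exceeded its SD. An exact sign-flip permutation test over 3 libraries (two-sided) cannot give a p below 0.25, and all 17 of these pairs had that value. Egr3 was higher than Egr1 by 0.68 on the log2 scale per kb (SD 0.45), with 0.36, 1.19 and 0.47 in replicates 1 to 3. Egr3 against Nr4a2 gave 1.46, 1.19 and -1.51, so these neighbours did not differ beyond their spread (mean 0.38, SD 1.64). Nr4a2 against Egr1 gave -1.09, 0.0051 and 1.98, a mean of 0.30 (SD 1.55), also within the spread. Below them, Egr1 exceeded Nr4a3 by 3.44 (SD 1.36), in 3 of 3 libraries. Nr4a3 and Nr4a1 did not differ beyond their spread (0.26, SD 0.55), since Nr4a1 was the higher of the pair in replicate 2. Nr4a2 exceeded Nr4a1 by 4.0 (SD 0.86) and Nr4a3 by 3.74 (SD 1.25), each in 3 of 3 libraries.

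The share of each gene in the summed counts of its family does not depend on how libraries are scaled. Egr3 made up 55.8% of Egr counts in replicate 1 (Wilson 95% interval 54.1 to 57.5), 69.1% in replicate 2 (68.1 to 70.0) and 56.1% in replicate 3 (54.1 to 58.1). Egr1 took 44.1, 30.7 and 41.2%. The share of Egr3 was thus higher in replicate 2 than in the other two libraries, whose intervals overlapped. Egr4 took 0, 0.25 and 2.28%, and its interval in replicate 3 (1.75 to 2.97) lay above that in replicate 2 (0.168 to 0.372).

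Nr4a2 made up 71.8% of Nr4a counts in replicate 1 (68.7 to 74.7), 91.7% in replicate 2 (90.6 to 92.6) and 88.9% in replicate 3 (87.9 to 89.9). Nr4a3 took 20.5, 4.76 and 7.86%, and Nr4a1 7.65, 3.56 and 3.23%. Replicate 1 thus had the most even split of the family, with the largest shares of Nr4a3 and Nr4a1. These intervals cover counting error only and compare 3 libraries, not conditions.

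The balance between the families turned in replicate 3. Nr4a genes held 20.7% of all Egr and Nr4a counts in replicate 1 (19.4 to 21.9), 23.3% in replicate 2 (22.6 to 24.1) and 62.3% in replicate 3 (61.1 to 63.5). Summed CPM was 758, 419 and 202 for the Egr genes and 197, 127 and 334 for the Nr4a genes. Replicate 3 therefore had both the lowest Egr and the highest Nr4a sum, and Nr4a2 alone made up 55.4% of its counts on the 7 genes, against 14.8 and 21.4% in the other libraries.

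**Figure D3:**
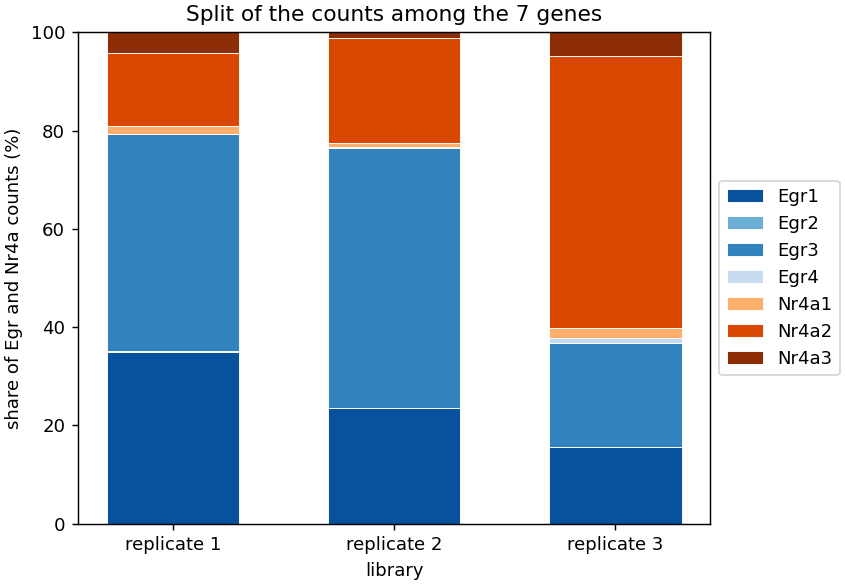
Share of the counts of the 7 genes taken by each gene, in percent, as 1 stacked bar per library (blue, Egr; orange to brown, Nr4a). The Nr4a part is 20.7 and 23.3% in replicates 1 and 2 and 62.3% in replicate 3.

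Markers of other cell types also differed between the libraries. The 6 oligodendrocyte markers were all highest in replicate 3, with a summed level of 877, 733 and 1204 CPM in replicates 1 to 3. Summed endothelial markers were 27.6, 176 and 287 CPM, with Cldn5 at 0, 11 and 1 counts, and summed astrocyte markers 3025, 1341 and 3114 CPM. Summed microglial markers were low, at 3.30, 6.81 and 20.9 CPM, with C1qa at 0 counts in each library and Tmem119 and Aif1 at 0 in replicates 1 and 3. GABAergic markers summed to 292, 243 and 347 CPM, and granule cell markers to 1760, 1992 and 1032 CPM. Flt1 made up most of the endothelial sum, at 17.2, 89.8 and 227 CPM, and 3 of the 6 endothelial markers were highest in replicate 2. P2ry12 made up most of the microglial sum in replicate 3, at 17.3 CPM. Slc1a2 made up most of the astrocyte sum, at 2874, 1228 and 2796 CPM. Of the 6 astrocyte markers, 3 were highest in replicate 3, 2 in replicate 1 and 1 in replicate 2. Granule cell markers were split, with 5 of 9 highest in replicate 2, 3 in replicate 1 and 1, Dsp, in replicate 3. Calb1, C1ql3, Tdo2 and Dsp were lowest in replicate 1 and the others in replicate 3. Replicate 3, with high Nr4a2 and Egr4 and low Egr1 and Egr3, thus had the highest oligodendrocyte and the lowest granule cell sum. Its astrocyte sum, but not each astrocyte marker, was close to that of replicate 1. The part of these marker levels in the result was not tested.

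Genes that act with the 2 families were read from lists. The test of level on these and the later lists used CPM without division by exon length. The Egr corepressors Nab1 and Nab2 bind Egr proteins and curb their activity. Nab1 had 43.6, 29.5 and 6.25 CPM and Nab2 16.5, 5.76 and 0.513 CPM in replicates 1 to 3. Both followed the order of Egr1 and Egr3, highest in replicate 1 and lowest in replicate 3, where Nab2 had 6 counts. The share of all genes with that order was not computed, so it does not set the corepressors apart. Nab1 did not pass the test of level (-0.59, SE 0.81, adjusted p = 0.929, limma), and Nab2 was not tested.

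The retinoid X receptors pair with Nr4a1 and Nr4a2 on DNA. Rxrb had 35.6, 11.0 and 5.82 CPM and Rxra 1.65, 23.1 and 21.6 CPM, with levels of -1.20 (SE 0.86) and -1.66 (SE 0.90) against the median gene. Neither passed the test (adjusted p = 0.715 and 0.511, limma; 0 of 2 also at an unadjusted p under 0.05). Rxrg had 0 counts in each library. Rxra was thus low in replicate 1 alone, at 7 counts, where Rxrb was highest.

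Upstream transcription factors and coactivators all passed the filter on low counts. All 17 listed genes were tested, and 7 were called above and 1 below the median gene, against 14.1 and 5.22% of all tested genes. Their median level was 1.83 on the log2 scale. Mkl2, a coactivator of Srf, was highest at 1275, 985 and 932 CPM (level 5.11, SE 0.44, adjusted p = 8.5e-08, limma). The histone acetyltransferase gene Crebbp, which works with CREB, had 1363, 261 and 242 CPM (level 3.85, SE 0.49, adjusted p = 4.2e-05). Crem, a relative of CREB with repressor forms, was lowest at 2.83, 3.93 and 4.02 CPM and lay below the median gene (level -3.04, SE 0.72, adjusted p = 0.0258). The others above were Elk4, Mef2a, Mef2c, Mef2d and Ep300. These calls depend in part on gene length, and calls per kb of exon were not counted for the list. Mef2c, called above, had a mean of 14.5 CPM per kb, and Atf1, not called, had 34.0. Elk4, Mef2d and Crebbp exceeded Atf1 per kb as well, at means of 90.5, 50.7 and 45.9. Srf and Creb1 themselves had levels of -0.013 and 1.04, and neither passed the test.

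Other inducible transcription factors had lower mean levels per kb of exon than Egr1, Egr3 and Nr4a2. In replicate 2 alone, Jun exceeded 2 of these, at 46.2 CPM per kb against 28.7 for Egr1 and 28.8 for Nr4a2. Of 13 listed, 5 were tested; 0 lay above the median gene, also at an unadjusted p under 0.05, and 1, Npas4, lay below it, against 14.1 and 5.22% of all tested genes. With 5 genes tested, these counts do not set the list apart. Npas4, a neuron-specific activity-induced factor, had 15, 22 and 14 counts (level -4.11, SE 0.58, adjusted p = 1.3e-04, limma). Jun, a partner of Fos in the AP-1 complex, was highest at 63.2, 147 and 47.5 CPM, followed by Fosl2 at 20.5, 28.4 and 122 CPM, while Fosl1 had 0 counts in each library. Fos had 0, 36 and 0 counts and Junb 0, 17 and 0, 2 genes named after their values were seen. In replicates 1 and 3 Fos was thus under 0.707 and 0.257 CPM, beside 334 and 83.3 CPM for Egr1. Of the 13 genes, 8 were at 0 in at least 1 library and 9 were highest in replicate 2. None of the 7 Egr and Nr4a genes had its highest level there. Replicate 2 was the deepest library, with a count for 16578 genes against 11913 and 14319 in replicates 1 and 3. The shares over all genes were not computed, so these counts do not set the genes apart from others.

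**Figure D4:**
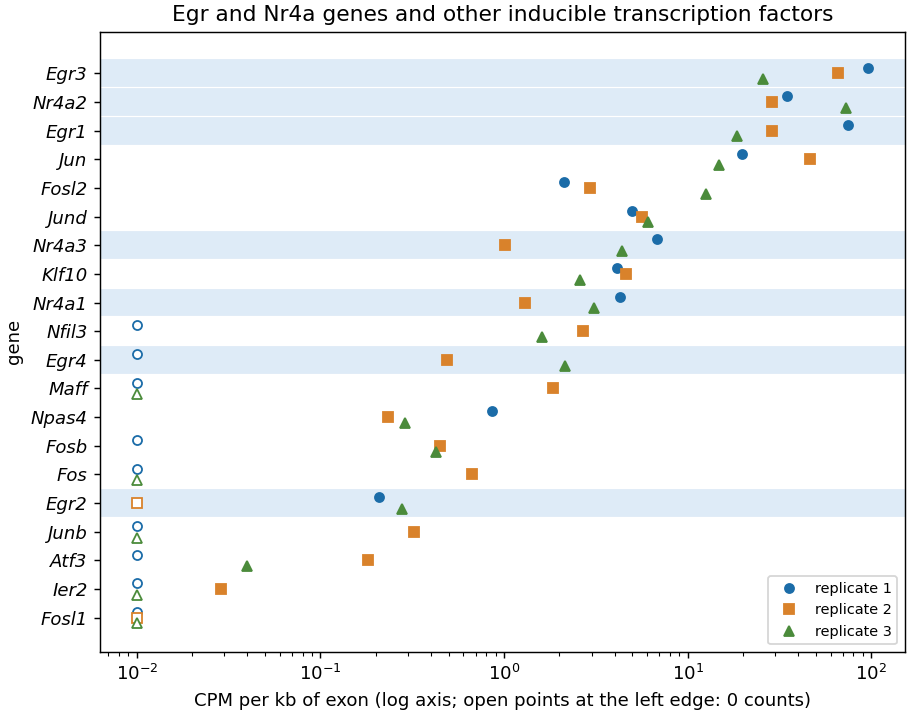
CPM per kb of exon (log axis) for the 7 genes (shaded) and 13 other inducible transcription factor genes, 1 point per library; open points at the left edge mark 0 counts. Egr3, Nr4a2 and Egr1 have the highest means of the 20 genes, with Jun next.

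Effector genes that rise quickly with activity were uneven. Of 10 listed, 5 were tested and 1, the synaptic scaffold gene Homer1, lay above the median gene at 124, 173 and 143 CPM (level 2.25, SE 0.45, adjusted p = 0.0301, limma), where 14.1% of all tested genes did. Arc, which controls AMPA receptor removal and is a target of Egr factors, had 227, 20.7 and 54.0 CPM (level 1.06, SE 0.62, adjusted p = 0.758). Per kb of exon, which this test did not use, Arc had the higher mean, at 32.9 against 12.3 CPM per kb for Homer1. Homer1 was the higher of the pair in replicate 2 alone, at 14.4 against 6.78 CPM per kb. Arc was highest in replicate 1, as were Egr1 and Egr3, but lowest in replicate 2, as were Nr4a1 and Nr4a3. Ppp1r15a was lowest, with 5, 0 and 0 counts. Of 8 genes with a delayed response, 7 were tested and 0 were called in either direction. Of all tested genes, 14.1% were called above and 5.22% below. At an unadjusted p under 0.05, 0 of the 7 lay above and 1 below. With 7 genes tested, these counts do not set the list apart. Nrn1, a membrane-anchored growth factor, had 73.3, 173 and 53.6 CPM, the G protein regulator Rgs2 2.12, 76.1 and 60.5, and the prohormone convertase gene Pcsk1 0.236, 2.10 and 10.3.

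Among nuclear receptor genes, Nr4a2 ranked near the top. Per kb of exon it took place 4, 2 and 1 of 49 in replicates 1 to 3 and had the highest mean, 45.6 CPM per kb. Next came Nr3c2, the mineralocorticoid receptor gene, at 59.9, 23.3 and 30.7 CPM per kb. The levels of these receptors overlapped between libraries, and Nr3c2 was the higher in replicate 1. Nr4a3 took place 14, 25 and 12 and Nr4a1 place 17, 22 and 16. Of 46 receptor genes outside the Nr4a family, 25 were tested, with 1 above (Nr3c2, level 2.89, SE 0.45, adjusted p = 0.00153, limma) and 1 below the median gene (Rarb, a retinoic acid receptor gene), against 14.1 and 5.22% of all tested genes. Their median level was -0.35, and 10 of the 46 had 0 counts in all 3 libraries, Nr5a2 and Vdr among them. Rorb, an orphan receptor gene, had 179, 32.6 and 162 CPM.

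**Figure D5:**
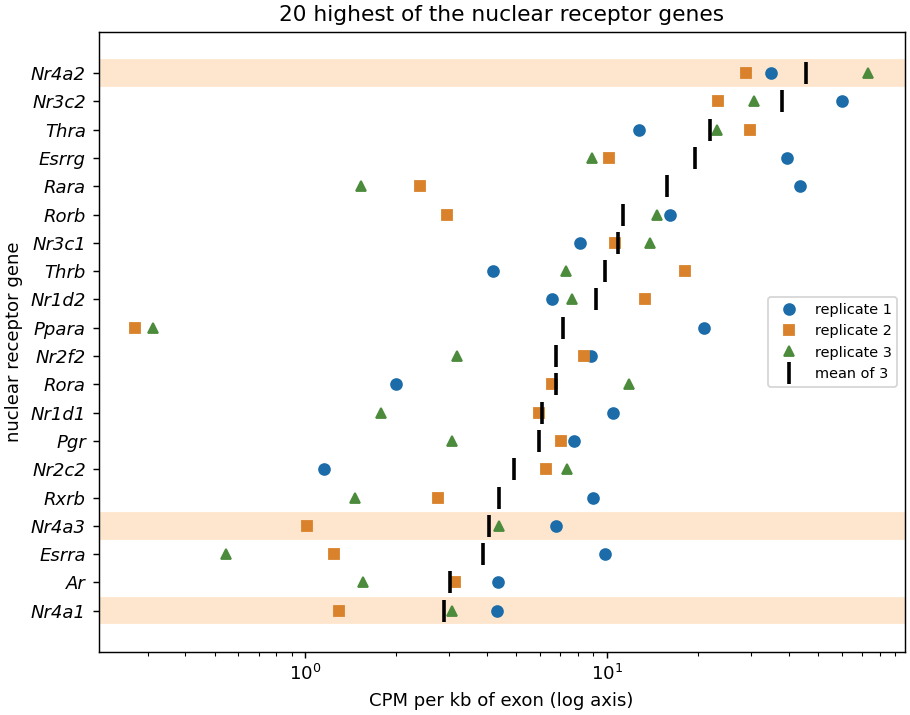
The 20 nuclear receptor genes with the highest mean CPM per kb of exon (log axis), 1 point per library and a bar for the mean of 3; Nr4a genes are shaded. Nr4a2 has the highest mean, 45.6 CPM per kb, but is the highest receptor gene only in replicate 3.

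Genes with library patterns nearest to those of each family were found by the largest distance, over 3 libraries, between log2 deviations from the own mean. The tested Egr genes deviated on average by 0.97, 0.0082 and -0.98 in replicates 1 to 3. Nearest to that were 6430548M08Rik, Ulk2 and Mark4, at largest distances of 0.029, 0.032 and 0.042. The Nr4a genes deviated on average by 0.52, -1.04 and 0.51, nearest to Ankrd33b, Golgb1 and Sik2, at 0.011, 0.022 and 0.040. That average did not describe Nr4a2, which deviated by -0.26, -0.54 and 0.80. Nr4a3 deviated by 1.11, -1.60 and 0.49, and Nr4a1, which was closer to the average, by 0.73, -0.97 and 0.25. Egr1, at 1.13, -0.25 and -0.88, and Egr3, at 0.81, 0.27 and -1.08, lay on either side of the Egr average. Within a distance of 0.25 lay 151 of 8508 genes for Egr and 103 of 8507 for Nr4a, so that with 3 libraries many genes come as close.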

How the data were processed

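Each deposited file holds raw read counts per gene symbol for 1 library; per the submitters' processing notes, STAR 2.0.0e, HTSeq and mm10 were used, while annotation, strand setting and filters are not given in the sources used here. Summary rows were dropped; reads on genes were 16.3, 38.2 and 21.1% of those listed. CPM and log2 CPM (prior count 2) used TMM factors of 0.793, 1.19 and 1.06 (edgeR 4.0.16, R 4.3.3), and filterByExpr kept 8510 of 32531 genes. Levels minus the library's median tested gene were tested with limma 3.58.1 (trend, TREAT, log2 threshold of 1), with Benjamini-Hochberg adjustment over all tested genes and a threshold of 0.05. Variation between libraries was tested with a Poisson chi-square. Both tests were checked on simulated counts with a spread set in advance, which for the Poisson chi-square was counting error only. That check does not show how the tests do at the spread of these libraries. Exon lengths and loci came from GENCODE vM21 (GRCm38), which gave a length for 92.9% of tested symbols and may not be the annotation counted on. Alternatives were scaling by DESeq2 1.42.0, dropping the filter, a prior count of 0.5, levels with or without division by exon length, and leaving out a replicate. A floor of 3 counts was added after seeing the data. The members and lists were chosen with earlier results of these data known. Named were all members, corepressors and partners, the 2 highest and the 1 lowest gene of each other list by mean CPM, and the 3 nearest patterns per family. Figures were drawn with matplotlib 3.10.9.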

Additional observations from a re-analysis of the deposited data

How the results depend on the processing

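The number of members above the median gene was 3, and 2 to 3 with a replicate left out: Egr1 lost its call without replicate 2 and Nr4a2 without replicate 3. Members below numbered 0, and 1 without replicate 1, when Egr4 entered the fit (level -3.08, adjusted p = 0.0353, limma). Without the filter the median gene is lower, and the signs of Nr4a1 and Nr4a3, neither called, turned to 1.02 and 2.05 (adjusted p = 0.645 and 0.190). With a replicate left out Nr4a3 ranged from -0.74 to 0.042, its sign turning without replicate 2. In that unfiltered fit Egr2 and Egr4 lay at -3.11 and -2.27 (adjusted p = 0.0747 and 0.319). DESeq2 size factors, a prior count of 0.5 and levels per kb of exon kept the 3 calls of Egr1, Egr3 and Nr4a2. Without replicate 2, 4 of 5 tested members varied beyond counting error, Nr4a1 being lost (adjusted p = 0.0571, Poisson chi-square). Without division by exon length 18 of 21 pairs had the same order in all libraries, and Nr4a3 exceeded Nr4a1 by 1.03. No order that held in all libraries between 2 members reversed without division by exon length, with a prior count of 0.5 or with counts below 3 set to 3; leaving out a replicate cannot reverse such an order. Differences from Egr2 and Egr4 rest on counts of 0 to 54, so their size depends on the prior count. No paired analysis was possible because the series has 1 group, so no replicate number is shared between groups.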
